A study of Mus musculus with 6 samples.

Results

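The genes described here are the 40 that build and run the T cell receptor (TCR) in CD8+ T cells: receptor chains, coreceptors, costimulatory receptors, and the kinases, phosphatases, adaptors, second-messenger enzymes and ubiquitin ligases that act next to the receptor. They were taken by symbol from a written list, and all 40 were found among the 34745 genes that were counted in every library. The libraries are RNA-seq of cultured CD8+ effector T cells (Teff), 3 from WT mice and 3 from Scd-1-/- mice, and the question was how loss of stearoyl-CoA desaturase 1 alters Teff cells. WT animals were purchased C57BL/6J males, and Scd-1-/- animals were males of the B6.129-Scd1tm1Ntam/J line, both aged 6 to 8 weeks. The allele is germline, so the cells had lacked the enzyme since before their maturation and in the company of a body that lacked it too. CD8+ T cells of the spleen were isolated with magnetic beads and stimulated with anti-CD3 at 5 µg/mL, anti-CD28 at 0.5 µg/mL for 3 days in the presence of 100 U/mL IL-2. The cells then spent 3 more days in IL-2 and were harvested on day 6, so that both groups were read after antibody stimulation through the receptor and after its removal. The study's methods speak in general of independent experiments, but the sources used here do not say of these 3 libraries a genotype whether they came from separate mice or cultures, and p-values therefore measure the spread between these libraries, which may be technical.

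The TCR itself has no enzymatic activity. The CD3 and zeta chains carry tyrosine motifs that the kinase LCK, held near the receptor by CD8, phosphorylates, and ZAP-70 then docks there and phosphorylates the adaptors LAT and SLP-76, on which phospholipase C gamma, VAV1 and Ras activators assemble. Several phosphatases, the kinase CSK, CD5 and the CBL ligases restrain these steps, and in effector T cells the balance of both arms sets how strongly a cell answers a further encounter with antigen. The values below are transcript levels and say nothing of protein or phosphorylation.

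The libraries held 14034479 to 15866216 counts each, at which depth an unseen transcript may still have 3 counts (0.189 to 0.214 CPM, counting error only). Scd1, the targeted gene, had 4272, 3074 and 3761 counts in WT and 30, 36 and 20 in Scd-1-/- libraries, so every library matched its label. The sum of 5 CD8 T cell markers lay between 1751 and 2199 FPKM (a count relative to the length of the gene and to the total of the library) in WT and between 1817 and 2172 FPKM in Scd-1-/- libraries. Cd4 had 8, 24 and 12 counts in WT and 5, 2 and 1 in Scd-1-/- libraries. The CD4 T cell list, nearly all of it Zbtb7b, summed to 6.15 to 12.2 FPKM in WT and 8.01 to 11.2 FPKM in Scd-1-/- libraries. The defining B cell genes Ms4a1 and Pax5 were at 0 in all 6, and the B cell list, nearly all of it Ighm, summed to 146 to 269 FPKM in WT and 97.6 to 146 FPKM in Scd-1-/- libraries. Of the 5 gamma delta T cell markers, 4 (the constant regions Trdc, Tcrg-C1, Tcrg-C2 and Tcrg-C4) were higher in all Scd-1-/- libraries than in any WT library, and the list summed to 102 to 141 FPKM in WT and 197 to 441 FPKM in Scd-1-/- libraries. The natural killer list (5 genes, 2 of them higher without overlap) summed to 1.67 to 2.21 FPKM in WT and 5.93 to 14.1 FPKM in Scd-1-/- libraries, with its defining genes Ncr1, Klra8 and Klra4 at 5 counts or fewer. The myeloid list summed to at most 1.17 and 2.24 FPKM, and the erythroid list to at most 0.179 and 0.215 FPKM. Of the variance between libraries, 42.9% separated replicate 1 of both genotypes from replicates 2 and 3, and 36.3% separated the genotypes.

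Most of the receptor machinery gave genotype differences near 0, as did most of all genes tested. The log2 fold change, taken as Scd-1-/- over WT, lay within 0.25 of 0 for 24 of the 40 genes (60.0%), where 63.6% of all genes were. It lay within 0.5 for 35 of the 40 (87.5%), where 87.1% of all genes were. All 40 genes reached a mean of 1 FPKM and were tested, and their median log2 fold change was −0.03, beside −0.00 for all 9627 genes tested, with 16 positive and 24 negative values. In edgeR without a block on all 6 libraries a single gene, Ubash3b, passed the thresholds of the study, which ask for a log2 fold change of 1 or more in either direction and an unadjusted p below 0.001, where 0.738% of all genes passed. Of the 40, 0 had an adjusted p under 0.05 by edgeR (quasi-likelihood test, Benjamini-Hochberg adjustment), where 0.114% of all genes had. At an unadjusted p under 0.05 there were 9 of 40, with a background of 10.1%, and with DESeq2 3 of 40 had an adjusted p under 0.05 (background 2.76%) and the same 3, Ubash3b, Txk and Tespa1, were past the thresholds (background 1.67%). When the replicate number was entered as a block, 5 of the 40 had an adjusted p under 0.05, with a background of 4.7%: Ubash3b, Txk and Themis were higher, and Tespa1 and Plcg1 lower, in Scd-1-/- cells. In the same blocked fit 3 of 40 (Ubash3b, Txk and Tespa1) were past the thresholds of the study, with a background of 1.91%.

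**Figure D1:**
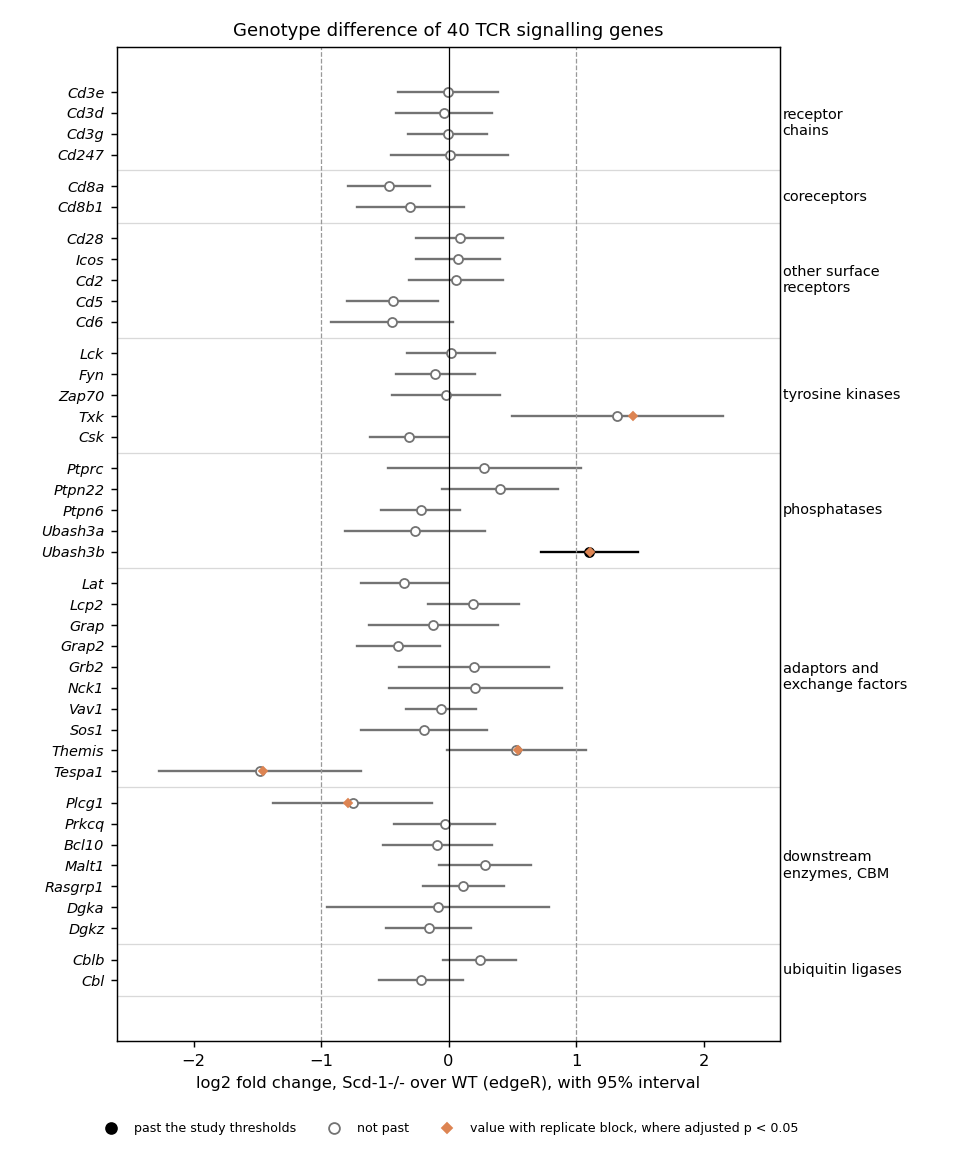
The log2 fold change of each of the 40 genes (horizontal axis, Scd-1-/- over WT, edgeR) is drawn with its 95% interval, grouped by role, with dashed lines at −1 and 1 and orange diamonds at the blocked value of the 5 genes whose blocked adjusted p is under 0.05. The 4 receptor chains sit on 0, and Ubash3b (filled, 1.10) is the gene past the study thresholds in this fit without the block, while Txk and Tespa1 lie farther out with wider intervals.

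How far the flat values can be trusted follows from the intervals. The standard error of the log2 fold change ranged from 0.117 to 0.374 with a median of 0.163, beside a median of 0.210 over all genes tested. The 95% interval lay wholly between −1 and 1 for 34 of the 40, where it did so for 77.0% of all genes. It excluded 0 for 9 of the 40 (22.5%), where it did so for 10.1% of all genes. The groups did not overlap in FPKM for 9 of the 40 (background 16.0%). Cblb, Txk and Ubash3b were the 3 with all Scd-1-/- libraries above all WT libraries, where 7.67% of all genes were so ordered. Cd5, Cd8a, Csk, Grap2, Lat and Tespa1 were the 6 with all Scd-1-/- libraries below, where 8.32% of all genes were so ordered.

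The set spans the range of transcript levels in these cells. Ranked by mean FPKM among the 9627 genes tested, the 4 receptor chains had a median percentile of 98.5, and the whole set a median of 82.8. At the low end stood Sos1, the Ras exchange factor carried by GRB2, at percentile 2.23, followed by Txk at 18.9 and the adaptor Nck1 at 21.6. Both genes with the largest positive fold changes were therefore among the less abundant of their class: Ubash3b was at percentile 45.7, whereas the other 4 phosphatases ranged up to 89.0 for Ptpn6.

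**Figure D2:**
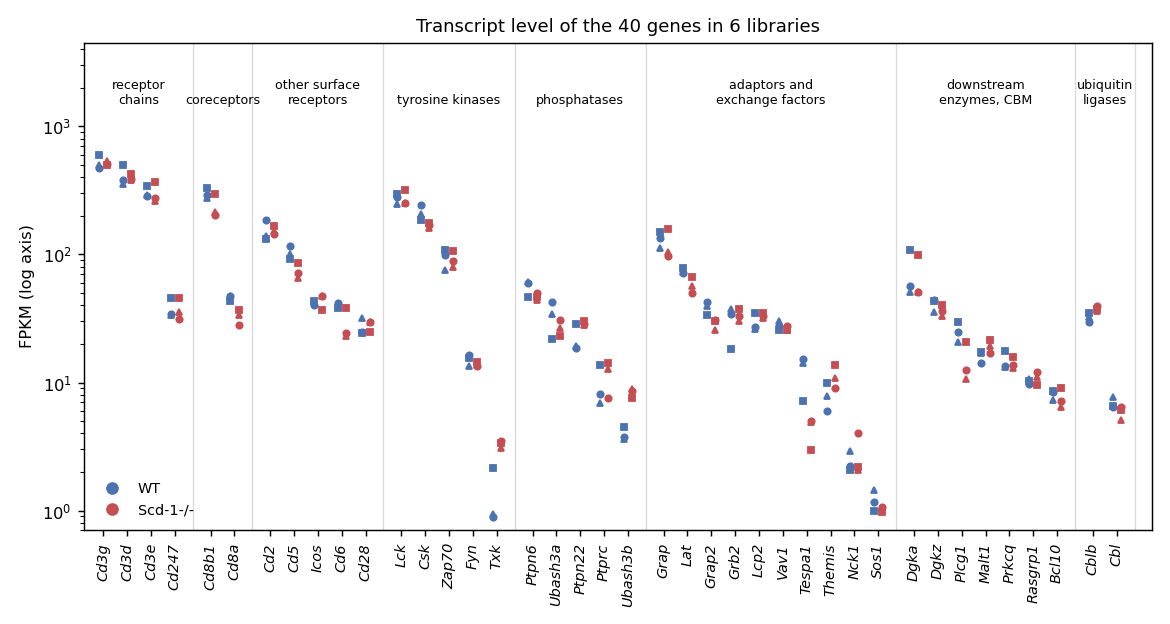
Each point is the FPKM of 1 gene in 1 library on a log axis, in blue for WT and red for Scd-1-/-, with squares, circles and triangles for replicates 1, 2 and 3, and genes ordered by WT level within each role. Levels run from 0.892 FPKM for Txk in WT replicate 2 to 593 FPKM for Cd3g in WT replicate 1, and the colours are apart for Ubash3b, Txk and Tespa1.

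The 4 receptor chains gave log2 fold changes between −0.03 and 0.01. Cd3g was at 593, 470 and 499 FPKM in WT replicates 1, 2 and 3 and at 495, 505 and 534 FPKM in the Scd-1-/- replicates. Cd3d was at 499, 378 and 357 FPKM in WT and 421, 389 and 378 FPKM in Scd-1-/- libraries. Cd3e, which anchors the receptor's signalling heterodimers, was at 343, 285 and 290 FPKM in WT and 367, 273 and 263 FPKM in Scd-1-/- libraries. The groups overlapped for each of them, and replicate 1 was the highest library of both genotypes for Cd3d and Cd3e but not for Cd3g. The log2 fold changes were −0.01 ± 0.133 (SE) for Cd3g, −0.03 ± 0.162 for Cd3d and −0.00 ± 0.169 for Cd3e, with 95% intervals of −0.314 to 0.304, −0.412 to 0.343 and −0.395 to 0.391. Cd247, the zeta chain, was at 45.7, 34.1 and 33.8 FPKM in WT and 45.7, 31.4 and 35.6 FPKM in Scd-1-/- libraries, a log2 fold change of 0.01 ± 0.197 (95% interval −0.448 to 0.469). Its exons share 56.4% of their bases with Pou2f1 on the other strand, and whether the counting used strand is not given in the sources used here. In WT the order of the levels was Cd3g at 521 ± 64.4 FPKM (SD, n = 3), Cd3d at 411 ± 76.5, Cd3e at 306 ± 32.2 and Cd247 at 37.9 ± 6.79, and the libraries of Cd3g and Cd3d overlapped. The log2 ratio to Cd3e within a library differed between the genotype means by 0.0145 for Cd3g, −0.00542 for Cd3d and 0.021 for Cd247 (exact two-sided permutation test, p = 1, 1 and 0.8). The ratio of Cd3g to Cd3e was 1.73, 1.65 and 1.72 in WT and 1.35, 1.85 and 2.03 in Scd-1-/- libraries. Its knockout values thus lay on both sides of the WT values, and its mean difference does not show this spread.

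Cd3g, Cd3d and Cd3e lie side by side on mouse chromosome 9 (GRCm38). Cd3g occupies chr9:44969572-44980431 on the minus strand and Cd3d chr9:44981786-44987339 on the plus strand, so that they start 1354 bases apart and are read away from each other. Cd3e follows at chr9:44998740-45009627 on the minus strand. The windows from 250 bases before to 50 bases after the RefSeq start of the 2 divergent genes are shown because both gave flat, high values from opposite strands, with CG dinucleotides in capitals (RefSeq, GRCm38.p6, each written 5′ to 3′ on its gene's strand).
Cd3g, chr9:44980382-44980681, minus strand: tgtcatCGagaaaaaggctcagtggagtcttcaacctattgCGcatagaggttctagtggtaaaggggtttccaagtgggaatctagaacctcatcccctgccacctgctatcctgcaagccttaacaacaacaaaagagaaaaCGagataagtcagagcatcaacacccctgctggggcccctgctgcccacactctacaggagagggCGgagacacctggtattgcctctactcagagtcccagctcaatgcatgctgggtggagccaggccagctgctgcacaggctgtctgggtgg
Cd3d, chr9:44981536-44981835, plus strand: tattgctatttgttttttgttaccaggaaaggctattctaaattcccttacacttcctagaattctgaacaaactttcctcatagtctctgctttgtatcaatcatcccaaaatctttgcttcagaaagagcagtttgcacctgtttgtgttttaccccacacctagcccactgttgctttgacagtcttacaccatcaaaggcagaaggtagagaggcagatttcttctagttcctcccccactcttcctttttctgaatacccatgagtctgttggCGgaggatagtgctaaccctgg
The first window holds 4 CG dinucleotides and the second 1, beside a median of 7 over 27025 promoter windows.

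The CD8 coreceptor genes gave lower values in Scd-1-/- cells, without passing the test. Cd8a was at 43.2, 47.6 and 47.1 FPKM in WT and 36.6, 27.9 and 33.7 FPKM in Scd-1-/- libraries. The groups did not overlap, and the log2 fold change was −0.46 ± 0.139 (95% interval −0.786 to −0.142), with an adjusted p of 0.297 in edgeR and 0.063 with the replicate block. Cd8b1 was at 330, 290 and 275 FPKM in WT and 299, 202 and 215 FPKM in Scd-1-/- libraries. Here replicate 1 of the knockout lay among the WT libraries, and the log2 fold change was −0.30 ± 0.181, with an adjusted p of 0.647 in edgeR and 0.124 with the block. Over the 14 alternatives the adjusted p ran from 0.0166 to 0.841 for Cd8a and from 0.0382 to 0.997 for Cd8b1, and both were under 0.05 only in the fit to replicates 2 and 3. The log2 ratio of Cd8b1 to Cd8a within a library differed between genotypes by 0.158 (exact two-sided permutation test, p = 0.4). The pair lies on chromosome 6 in the same orientation, Cd8b1 at chr6:71322788-71337494 and Cd8a 35932 bases farther on at chr6:71373427-71379173. In bulk RNA, fewer cells of a type and less RNA per cell cannot be told apart. The gamma delta constant-region transcripts went the other way, as for Trdc with 153, 76 and 73 counts in WT and 471, 741 and 1046 in Scd-1-/- libraries. Their part in the result was not tested. Trac, the alpha chain constant region, had a log2 fold change of −0.04 ± 0.156.

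Among the other surface receptors, Cd5 and Cd6, which are related scavenger receptor family members that dampen or modulate TCR signals, gave lower values without passing the test, and the values of the costimulatory receptors lay nearer to 0. Cd5 was at 91.5, 116 and 100 FPKM in WT and 85.7, 71.4 and 65.7 FPKM in Scd-1-/- libraries, without overlap. Its log2 fold change was −0.44 ± 0.153 (95% interval −0.794 to −0.0843), with an adjusted p of 0.387 in edgeR and 0.0948 with the block. Cd6 was at 38.3, 41.7 and 39.1 FPKM in WT and 38.4, 24.5 and 23.3 FPKM in Scd-1-/- libraries, so that the first knockout library stood with WT and the other 2 well below. The log2 fold change of Cd6 was −0.44 ± 0.204, with an adjusted p of 0.529 in edgeR and 0.12 with the block. Without Scd-1-/- replicate 1 it was −0.71 with an adjusted p of 0.044, within a range of 0.00301 to 0.997 over the alternatives. Cd5 (chr19:10717116-10739002) and Cd6 (chr19:10789341-10830058) are neighbours with 50338 bases between them.

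Cd28, whose engagement was part of the stimulation, was at 24.5, 24.6 and 31.8 FPKM in WT and 24.8, 29.9 and 29.5 FPKM in Scd-1-/- libraries. Icos, its inducible relative, was at 43.6, 39.995 and 42.6 FPKM in WT and 36.7, 47.1 and 47.2 FPKM in Scd-1-/- libraries. Cd2, the receptor for CD48, was at 132, 185 and 139 FPKM in WT and 167, 145 and 153 FPKM in Scd-1-/- libraries. The groups overlapped for all 3, with log2 fold changes of 0.09 ± 0.146, 0.08 ± 0.142 and 0.06 ± 0.159. Ctla4, the inhibitory receptor gene that lies between Cd28 and Icos on chromosome 1, had a log2 fold change of 0.07 ± 0.117.

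The kinases that start the cascade were flat, and Txk was not. Lck was at 298, 281 and 246 FPKM in WT and 319, 252 and 251 FPKM in Scd-1-/- libraries (log2 fold change 0.02 ± 0.149). Zap70 was at 108, 98.5 and 76.2 FPKM in WT and 107, 88.3 and 80.1 FPKM in Scd-1-/- libraries (−0.02 ± 0.183). Fyn, the second Src family kinase at the receptor, was at 15.6, 16.4 and 13.6 FPKM in WT and 14.6, 13.5 and 13.7 FPKM in Scd-1-/- libraries (−0.10 ± 0.133). The libraries of both genotypes overlapped for all 3, and the order Lck, Zap70, Fyn held in each. Lck exceeded Fyn 17.1 to 19.1-fold in WT and 18.4 to 21.9-fold in Scd-1-/- libraries, a difference of 0.114 on the log2 scale (exact two-sided permutation test, p = 0.4). Csk, which phosphorylates the inhibitory tyrosine of LCK, was at 185, 245 and 208 FPKM in WT and 177, 169 and 161 FPKM in Scd-1-/- libraries. These groups did not overlap, and the log2 fold change of Csk was −0.31 ± 0.132, with an adjusted p of 0.495 in edgeR and 0.164 with the block.

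Txk (ENSMUSG00000054892), also called Rlk, a Tec family kinase that phosphorylates phospholipase C gamma, lies on chr5:72695978-72752777, minus strand. It had 434, 165 and 175 counts in WT and 687, 648 and 647 counts in Scd-1-/- libraries, or 2.17, 0.892 and 0.933 FPKM against 3.35, 3.48 and 3.09 FPKM. All knockout libraries exceeded all WT libraries, and WT replicate 1 lay between the others. The log2 fold change was 1.32 ± 0.356 (95% interval 0.498 to 2.15), with an adjusted p of 0.255 in edgeR, and it did not pass the thresholds. With the replicate block it was 1.45 ± 0.256 with an adjusted p of 0.0253, and without WT replicate 1 it was 1.90 with an adjusted p of 0.00796, both past the thresholds. Over 13 alternatives the adjusted p of Txk ran from 2.34e-04 to 0.782.

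The phosphatases held Ubash3b, the gene past the thresholds in edgeR on all 6 libraries. Ubash3b (ENSMUSG00000032020) encodes STS-1, a histidine phosphatase that removes phosphate from ZAP-70 and so limits TCR signals, and it lies on chr9:41011098-41161697, minus strand. It had 577, 442 and 437 counts in WT and 994, 1029 and 1199 counts in Scd-1-/- libraries, or 4.51, 3.73 and 3.64 FPKM against 7.57, 8.65 and 8.96 FPKM. Every knockout library stood well above every WT library, with group means of 3.96 ± 0.477 and 8.39 ± 0.730 FPKM (SD, n = 3 each). Ubash3b rose 2.15-fold, a log2 fold change of 1.10 ± 0.164 (95% interval 0.723 to 1.48), with an unadjusted p of 1.78e-04 that became 0.0684 after adjustment in edgeR. With the replicate block the log2 fold change was 1.11 and the adjusted p 0.00976, and over the 14 alternatives the adjusted p ran from 5.22e-07 to 0.419. The log2 fold change stayed between 1.03 and 1.22 whichever library was left out. The unadjusted p was then above the threshold of 0.001 without WT replicate 2 (0.00148), WT replicate 3 (0.00133), Scd-1-/- replicate 2 (0.00112) and Scd-1-/- replicate 3 (0.00108), and on the log2(FPKM + 1) scale in limma the fold change was 0.92, under the threshold of 1.

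Ubash3a, its paralogue with much weaker phosphatase activity, was at 22.0, 42.4 and 34.2 FPKM in WT and 23.1, 30.9 and 26.8 FPKM in Scd-1-/- libraries. Replicate 1 was the lowest library of both genotypes, the groups overlapped, and the log2 fold change was −0.26 ± 0.235, which became −0.03 without WT replicate 2 and −0.47 without WT replicate 1. Ubash3a remained the more abundant of the pair in every library, by 4.89, 11.3 and 9.40-fold in WT and by 3.05, 3.57 and 2.99-fold in Scd-1-/- libraries. The log2 ratio differed between genotypes by −1.33 without overlap, at an exact two-sided permutation p of 0.1 (adjusted p 0.55 over 11 pairs), the smallest that 3 against 3 libraries allow. The promoter windows of both paralogues and of Txk are shown because the levels or proportions of these genes stood apart between genotypes. Tespa1, with the widest fold change of the 40 genes, had no entry in the promoter table. The windows are written with CG dinucleotides in capitals (RefSeq, GRCm38.p6, each 5′ to 3′ on its gene's strand, at the most upstream start in the table). The window of Ubash3b lies wholly inside the span given above for the gene, which is from GENCODE and starts farther upstream.
Ubash3b, chr9:41158013-41158312, minus strand: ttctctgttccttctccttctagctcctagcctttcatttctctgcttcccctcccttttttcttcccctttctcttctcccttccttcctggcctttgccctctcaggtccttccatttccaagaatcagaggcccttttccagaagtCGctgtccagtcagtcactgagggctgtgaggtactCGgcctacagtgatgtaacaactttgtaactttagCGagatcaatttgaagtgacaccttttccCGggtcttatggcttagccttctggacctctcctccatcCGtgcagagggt
Ubash3a, chr17:31207816-31208115, plus strand: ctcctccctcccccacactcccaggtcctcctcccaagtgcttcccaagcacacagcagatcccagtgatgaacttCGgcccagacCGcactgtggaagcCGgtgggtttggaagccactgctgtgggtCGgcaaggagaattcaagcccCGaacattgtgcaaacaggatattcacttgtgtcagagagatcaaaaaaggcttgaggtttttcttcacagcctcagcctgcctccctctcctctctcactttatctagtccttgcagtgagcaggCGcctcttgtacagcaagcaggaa
Txk, chr5:72752728-72753027, minus strand: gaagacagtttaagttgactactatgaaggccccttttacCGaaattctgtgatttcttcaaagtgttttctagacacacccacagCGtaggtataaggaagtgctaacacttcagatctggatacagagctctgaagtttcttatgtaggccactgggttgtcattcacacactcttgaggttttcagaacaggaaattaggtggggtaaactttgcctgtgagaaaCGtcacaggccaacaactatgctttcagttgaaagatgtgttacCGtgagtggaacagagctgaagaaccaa
They hold 5, 6 and 4 CG dinucleotides, beside the median of 7 over all windows. Short motifs were searched on both strands: TGTGGT for RUNX factors, CCGGAA for ETS factors, ATCAAAG for TCF/LEF factors, GGTGTGA for T-box factors and the TATA box TATAAA. They occur in 16.9%, 15.2%, 3.76%, 3.96% and 14.2% of all windows and in 3, 4, 2, 2 and 3 of the 32 windows that the table held for the 40 genes. Of the windows printed, that of Cd3d held 1 TCF/LEF match and the other 4 held no match to these letters. The counts are per gene, and they do not tell which start was used.

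Ptprc encodes CD45, which keeps LCK ready by removing its inhibitory phosphate. Ptprc was at 13.6, 8.13 and 6.86 FPKM in WT and 14.2, 7.53 and 12.7 FPKM in Scd-1-/- libraries, with overlap and a log2 fold change of 0.28 ± 0.325, which became 0.08 without WT replicate 3 and 0.65 without WT replicate 1. Ptpn22, which dephosphorylates LCK and ZAP-70, was at 28.7, 18.5 and 19.3 FPKM in WT and 30.2, 28.8 and 27.9 FPKM in Scd-1-/- libraries. In replicates 2 and 3 the knockout was higher, and in replicate 1 the values lay side by side, so that over all libraries the log2 fold change was 0.40 ± 0.195 with an adjusted p of 0.549 in edgeR. Ptpn6, which encodes SHP-1, was at 46.9, 59.8 and 60.9 FPKM in WT and 46.9, 50.3 and 44.3 FPKM in Scd-1-/- libraries (−0.22 ± 0.134). Of the 5 phosphatase genes, 1 rose, 0 fell and 4 did not pass the thresholds, which 0.738% of all genes passed.

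**Figure D3:**
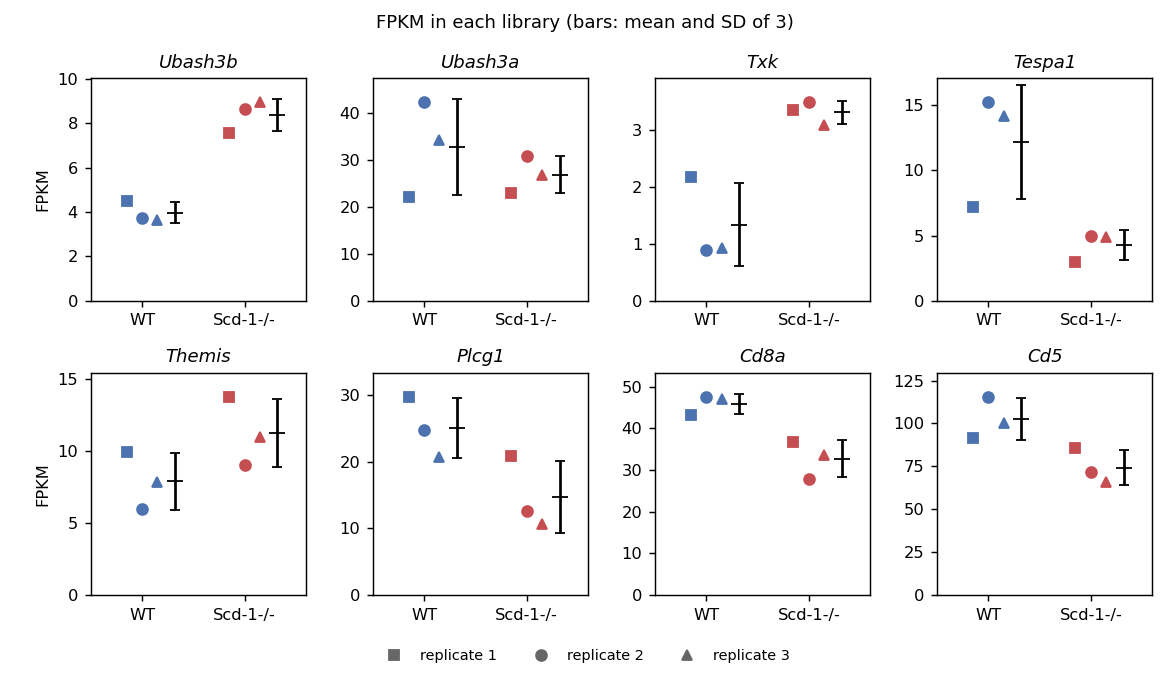
FPKM per library for 8 of the genes, in blue for WT and red for Scd-1-/-, with squares, circles and triangles for replicates 1, 2 and 3, and with the mean and SD of 3 libraries as black bars on axes that start at 0. Ubash3b separates the genotypes with little spread, Txk and Tespa1 separate them with WT replicate 1 nearest to the knockout, and Themis and Plcg1 shift within each replicate while the groups touch or overlap.

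The adaptors were mixed. Lat, the membrane scaffold of the signalosome, was at 78.7, 71.4 and 73.3 FPKM in WT and 66.9, 49.6 and 56.3 FPKM in Scd-1-/- libraries. Grap2, which encodes GADS and bridges LAT to SLP-76, was at 33.9, 42.4 and 39.3 FPKM in WT and 30.4, 30.7 and 25.5 FPKM in Scd-1-/- libraries. Both were lower in all knockout libraries, with log2 fold changes of −0.35 ± 0.146 and −0.39 ± 0.141, but adjusted p-values of 0.482 and 0.405 in edgeR and of 0.0808 and 0.101 with the block. Lcp2, which encodes SLP-76 itself, was at 35.0, 27.3 and 26.3 FPKM in WT and 34.9, 33.0 and 32.2 FPKM in Scd-1-/- libraries (0.20 ± 0.153). Vav1, the Rac exchange factor bound to SLP-76, was at 25.6, 27.6 and 30.5 FPKM in WT and 25.8, 27.5 and 25.7 FPKM in Scd-1-/- libraries. Its log2 fold change of −0.06 ± 0.117 had the smallest error of the set. Grb2 was at 18.1, 34.2 and 37.6 FPKM in WT and 37.8, 33.0 and 30.4 FPKM in Scd-1-/- libraries, a log2 fold change of 0.20 ± 0.252 in which WT replicate 1 was the outlying low library. Grap, a GRB2-like adaptor, was at 149, 134 and 113 FPKM in WT and 158, 96.4 and 105 FPKM in Scd-1-/- libraries (−0.12 ± 0.219). The low-level Nck1 ranged from 2.07 to 4.02 FPKM and Sos1 from 0.972 to 1.45 FPKM over the 6 libraries, with log2 fold changes of 0.21 ± 0.293 and −0.19 ± 0.214.

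Tespa1 and Themis, genes best known from thymocyte selection, were the adaptors with the widest genotype differences, in opposite directions. Tespa1 (ENSMUSG00000034833), whose product links the receptor to phospholipase C gamma 1 and calcium release, lies on chr10:130322870-130364111. It had 184, 362 and 341 counts in WT and 78, 119 and 132 counts in Scd-1-/- libraries, and 7.16, 15.2 and 14.2 FPKM against 2.96, 4.98 and 4.91 FPKM. In both genotypes replicate 1 was the lowest library, and the groups did not overlap. The log2 fold change was −1.48 ± 0.340 (95% interval −2.27 to −0.689), with an adjusted p of 0.177 in edgeR, and it did not pass the thresholds. With the block it was −1.45 ± 0.171 with an adjusted p of 0.00685, and without WT replicate 1 it was −1.74, both past the thresholds, within a range of adjusted p of 8.84e-04 to 0.695 over the alternatives. The study itself names Tespa1 among its differentially expressed genes, with the higher level in WT. It used edgeR and does not state which of its tests was run. Themis, which binds GRB2 and SHP-1, was at 9.90, 5.94 and 7.81 FPKM in WT and 13.7, 9.02 and 10.9 FPKM in Scd-1-/- libraries. The groups overlapped, yet the knockout was higher in each of the 3 replicate numbers, and the log2 fold change was 0.53 ± 0.235 with an adjusted p of 0.509 in edgeR and 0.54 ± 0.0968 with an adjusted p of 0.0259 under the block (range 0.0259 to 0.996 over the alternatives).

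Plcg1 stood apart from the other enzymes downstream of LAT. PLCG1 cleaves a membrane phosphoinositide into the messengers that open calcium stores and recruit protein kinase C theta and RasGRP1. Plcg1 (ENSMUSG00000016933, chr2:160731300-160775760) was at 29.7, 24.7 and 20.7 FPKM in WT and 20.8, 12.6 and 10.7 FPKM in Scd-1-/- libraries. The groups met at Scd-1-/- replicate 1 and WT replicate 3, while the knockout was lower in each of the 3 replicate numbers. The log2 fold change was −0.75 ± 0.269 with an adjusted p of 0.403 in edgeR, and −0.79 ± 0.113 with an adjusted p of 0.012 under the block. Without Scd-1-/- replicate 1 it was −1.09 and past the thresholds, and the adjusted p ran from 0.00266 to 0.978 over the alternatives. Prkcq, the gene of protein kinase C theta, was at 13.2 to 17.7 FPKM in WT and 13.1 to 15.9 FPKM in Scd-1-/- libraries (−0.03 ± 0.171). Rasgrp1 was at 9.67 to 10.6 FPKM in WT and 9.48 to 12.0 FPKM in Scd-1-/- libraries (0.12 ± 0.137). Bcl10 and Malt1, partners in the complex that carries the signal to NF-kappaB, had log2 fold changes of −0.09 ± 0.185 and 0.29 ± 0.154, and the genotypes overlapped for both.

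Dgka and Dgkz encode the diacylglycerol kinases that end RasGRP1 signalling. Dgka was at 108, 56.7 and 51.1 FPKM in WT and 99.7, 50.4 and 51.2 FPKM in Scd-1-/- libraries, and Dgkz at 43.4, 43.9 and 35.8 FPKM against 39.999, 35.8 and 33.0 FPKM. Dgka differed between replicate 1 and the others by 0.986 on the log2 scale, the widest such gap of the 40 genes, whereas its genotype difference was −0.08 ± 0.374. The ratio of Dgka to Dgkz was 2.48, 1.29 and 1.43 in WT and 2.49, 1.41 and 1.55 in Scd-1-/- libraries, so that it went with the replicate number in both genotypes.

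The CBL ubiquitin ligases, which mark the activated receptor and its partners for removal, gave values on opposite sides of 0. Cblb was at 34.9, 29.9 and 32.6 FPKM in WT and 37.8, 39.9 and 36.0 FPKM in Scd-1-/- libraries. Cbl was at 6.60, 6.46 and 7.69 FPKM in WT and 6.05, 6.47 and 5.07 FPKM in Scd-1-/- libraries. Neither passed the test, with log2 fold changes of 0.24 ± 0.122 and −0.21 ± 0.141 and adjusted p-values of 0.564 and 0.678 in edgeR. The ratio of Cblb to Cbl was 5.29, 4.63 and 4.25 in WT and 6.24, 6.17 and 7.11 in Scd-1-/- libraries, without overlap, a log2 difference of 0.466 (exact two-sided permutation test, p = 0.1, adjusted p 0.55 over 11 pairs).

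**Figure D4:**
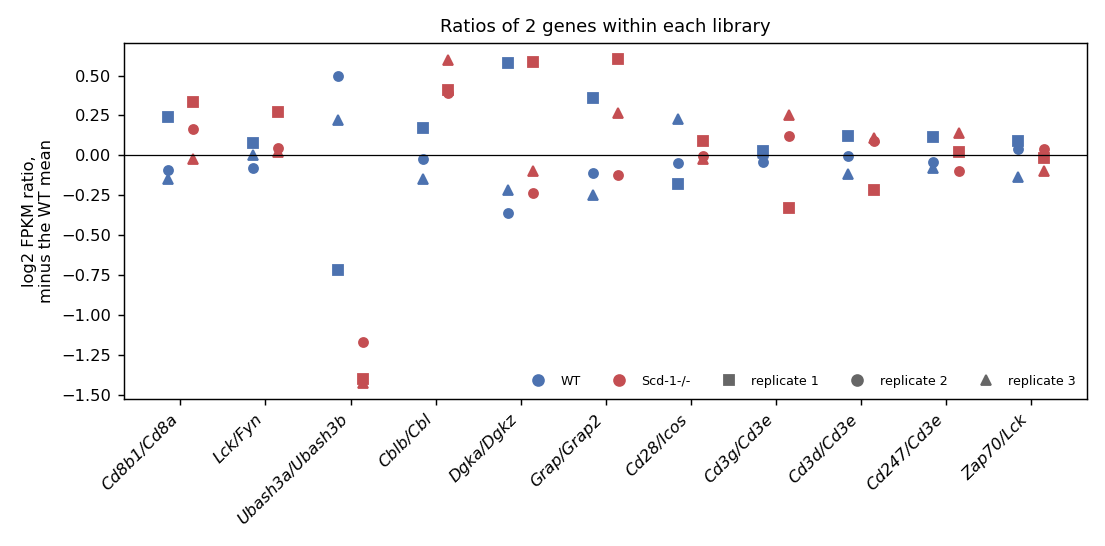
The log2 ratio of 2 genes within each library, minus the WT mean of that ratio, for the 11 pairs compared, in blue for WT and red for Scd-1-/-, with squares, circles and triangles for replicates 1, 2 and 3. Only Ubash3a/Ubash3b and Cblb/Cbl have genotypes that do not overlap, while Dgka/Dgkz splits by replicate 1.

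Ratios within a library do not depend on the scaling between libraries. Of the 11 pairs compared, 2 reached the smallest p that this design allows, and the other 9 had adjusted p-values of 0.978 to 1 by the exact permutation test. Among these, Grap to Grap2 differed between genotypes by 0.2497 on the log2 scale (p = 0.5, and 0.0723 to 0.435 when 1 library was left out), Cd28 to Icos by 0.022 (p = 0.8) and Zap70 to Lck by −0.0256 (p = 0.7) in the exact test.

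The level of several of these genes went with the replicate number in both genotypes. Both replicate 1 libraries were above the other 4 for 12 of the 40 genes (background 21.6%): Cd3d, Cd3e, Cd247, Cd8b1, Lck, Zap70, Ptprc, Lcp2, Grap, Prkcq, Bcl10 and Dgka. Both were below the other 4 for Sos1 and Ubash3a (2 of 40, background 23.0%). What the replicate number stands for is not given in the sources used here. In a fit to replicates 2 and 3 of both genotypes only, 13 of the 40 had an adjusted p under 0.05 in edgeR (background 12.6%). These were the 5 called with the block, and Ptpn22, Cd5, Cd6, Cd8a, Cd8b1, Csk, Grap2 and Lat. In that fit 3 of 40 were past the study thresholds (background 3.83%): Txk at 1.88, Ubash3b at 1.29 and Tespa1 at −1.53.

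**Figure D5:**
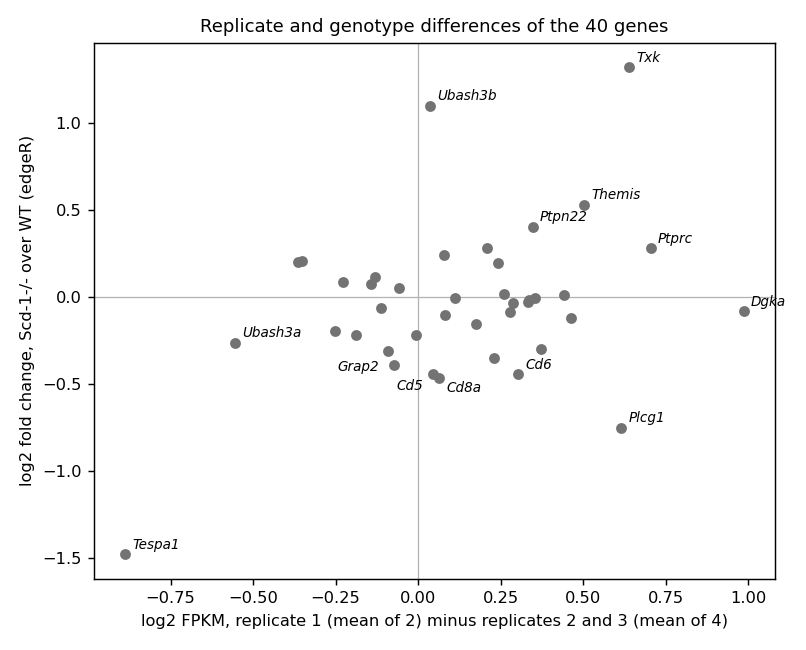
Each point is 1 of the 40 genes, with the log2 FPKM difference of replicate 1 (mean of 2 libraries) from replicates 2 and 3 (mean of 4) on the horizontal axis and the log2 fold change between genotypes on the vertical axis. Ubash3b lies at 0.0362 and 1.10, Dgka at 0.986 and −0.08, and Txk, Themis, Plcg1 and Tespa1 differ along both axes.

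A list of 95 further genes of TCR signalling was counted for comparison, of which 94 were in the data and 87 reached a mean of 1 FPKM. Cd4, Vav3, Gab3, Rasa2, Mapk8, Fos and Rnf128 were below it. The 87 genes had a median log2 fold change of −0.04, with 43 positive and 44 negative values. One gene passed both calls: Pdcd1, which encodes the inhibitory receptor PD-1, was at 32.4, 30.5 and 37.0 FPKM in WT and 91.4, 151 and 148 FPKM in Scd-1-/- libraries. It rose by a log2 fold change of 1.99 ± 0.212, with an adjusted p of 0.0259 in edgeR and 0.00195 with the block (range 3.38e-14 to 0.259 over the alternatives, the highest without WT replicate 2). The replicate block gave 8 of 87 (9.2%) with an adjusted p under 0.05, where 4.7% of all genes had one. Higher were Pdcd1, Cd48, the ligand of CD2, at 0.70 ± 0.197 without the block, and Dok2, an inhibitory adaptor, at 0.47 ± 0.129. Lower were Vav2, a relative of Vav1, at −0.91 ± 0.179, Stim2, a calcium sensor of the endoplasmic reticulum, at −0.87 ± 0.221, Cd226, an activating receptor, at −0.89 ± 0.287, Prkd2, a diacylglycerol-responsive kinase, at −0.57 ± 0.279, and Rhoh, an atypical GTPase that aids ZAP-70 and LCK, at −0.50 ± 0.185. Their blocked adjusted p-values in edgeR lay between 0.00195 and 0.0444.

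Vav2 was at 2.81, 2.51 and 2.49 FPKM in WT and 1.49, 1.35 and 1.25 FPKM in Scd-1-/- libraries, whereas its more abundant relative Vav1 had overlapping groups. Stim2 was at 3.73, 2.90 and 4.52 FPKM in WT and 1.66, 1.98 and 2.34 FPKM in Scd-1-/- libraries. Cd226 was at 6.41, 9.23 and 8.85 FPKM in WT and 2.74, 4.71 and 5.50 FPKM in Scd-1-/- libraries. All 3 had groups that did not overlap, as had 14 of the 87 genes (16.1%, background 16.0%). The highest values after Pdcd1 were those of Mapk14, a stress-activated kinase, at 0.80 ± 0.281, and Themis2, a relative of Themis expressed mainly outside T cells, at 0.75 ± 0.640, with adjusted p-values of 0.391 and 0.783 in edgeR. The lowest was Trat1, a receptor-associated adaptor, with 0, 36 and 27 counts in WT and 7, 0 and 0 in Scd-1-/- libraries, for which no fold is given at these counts. The constant regions that complete the receptor were flat or nearly so, at −0.04 ± 0.156 for Trac, 0.22 ± 0.153 for Trbc1 and 0.24 ± 0.139 for Trbc2.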

How the data were processed

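RNA of Teff cells from 3 WT and 3 Scd-1-/- libraries was measured by RNA-seq, with genotype and replicate number taken from the labels. The extraction and the library kit differ between the labels (Trizol, poly(A) RNA) and the study's methods (a column and total RNA with strand kept). Per the labels, FastQC, HISAT2 and StringTie 1.3.0 were used on GRCm38. The authors deposited a whole-number count for each gene and library, without normalization. The authors also deposited FPKM, which scales a count to gene length and library total and, tested on these values, carries no TMM factor. Multi-mapped reads and strand in counting are not given in the sources used here.

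Counts were tested for the 9627 genes whose mean FPKM reached 1 with edgeR 4.0.16 (R 4.3.3) by the quasi-likelihood test with TMM scaling, no covariate and Benjamini-Hochberg adjustment over all genes tested. The SE is the size of the log2 fold change divided by the square root of F. Calls used the study's thresholds (a log2 fold change of 1 or more in either direction, unadjusted p below 0.001) and, separately, an adjusted p under 0.05. The 11 ratios of FPKM within a library were tested by exact two-sided permutation (scipy 1.17.1) with adjustment over the pairs. The test script was tested on simulated counts with known changes.

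The pairing of libraries by replicate number was checked from the correlation, across genes (which are not independent replicates), of deviations from the group means. This r was 0.595, 0.306 and 0.470 between libraries of the same number, so blocked values are given beside results whose call they change, while the main test and the ratios used no pairing. Neither the labels nor the study's methods say what a number stands for, and r was 0.380 and 0.180 when replicates 2 and 3 were crossed. The block on the replicate number was an alternative, as were DESeq2 1.42.0, limma 3.58.1 on log2(FPKM + 1) and log2(FPKM + 0.1), median-ratio scaling, no FPKM minimum (17192 genes), a minimum of 5, replicates 2 and 3 only, and leaving out each of the 6 libraries, 14 in all. A gene under a minimum of 5 has 13.

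The 40 genes, the further genes of the pathway and the marker lists were chosen with earlier results of these data known. Named genes are all 40, Scd1, further pathway genes called with or without the block, and the 3 highest and 3 lowest of those by log2 fold change. Ctla4, the constant-region genes, Trdc and other markers were named outside this rule. Of the 95 pathway genes, Carmil2 was not matched by symbol. Positions are from GENCODE M21 on GRCm38, matched for 98.62% of identifiers, and promoter windows from RefSeq (GRCm38.p6), matched for 32 of the 40 genes.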

Additional observations from a re-analysis of the deposited data

How the results depend on the processing

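Of the 40 genes, 27 kept the sign of their log2 fold change in every alternative and 13 changed sign in at least one, all of these with values near 0. The number of the 40 past the study thresholds was 1 (0.738% of all genes tested, with the like share in the parentheses that follow), and it was 3 with DESeq2 (1.67%), with the replicate block (1.91%) and with replicates 2 and 3 only (3.83%), 0 with limma on log2(FPKM + 1) (0.582%), and 0 to 3 when 1 library was left out (0.26% to 1.69%). The number with an adjusted p under 0.05 was 0 (0.114%), and it was 1 with no FPKM minimum (0.489%), 3 with DESeq2 (2.76%), 5 with the replicate block (4.7%), 13 with replicates 2 and 3 only (12.6%), and 0 to 3 when 1 library was left out (0.0208% to 1.89%). Of the 87 further pathway genes, 4 (4.6% of them, where 3.83% of all genes did) passed the study thresholds with replicates 2 and 3 only, and 1 to 3 when 1 library was left out. Of these 87, 3 (3.45% of the 87) had an adjusted p under 0.05 with DESeq2, 8 (9.2%) with the replicate block, 17 (19.5%) with replicates 2 and 3 only, where 2.76%, 4.7% and 12.6% of all genes had one, and 0 to 3 when 1 library was left out. The cause of these differences was not tested. Among the 40 and the 87 genes, the replicate block changed no other call than those given beside the results.

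With replicates 2 and 3 only, the log2 fold change reversed for Cd3d (0.10), Cd3g (0.14), Cd2 (−0.083), Lck (−0.028), Grb2 (−0.14) and Prkcq (0.053). With the replicate block it reversed for Cd3g (0.0034), and with limma on log2(FPKM + 1) and log2(FPKM + 0.1) for Cd247 (−0.0129 and −0.0133) and Lck (−0.00715 and −0.00719). Leaving out 1 library gave −0.17 to 0.11 for Cd3e, −0.14 to 0.15 for Cd3d, −0.074 to 0.12 for Cd3g, −0.16 to 0.19 for Cd247, −0.023 to 0.22 for Cd2, −0.11 to 0.10 for Lck, −0.16 to 0.11 for Zap70, −0.37 to 0.014 for Grap, −0.0501 to 0.38 for Grb2, −0.16 to 0.38 for Nck1, −0.12 to 0.14 for Prkcq, −0.25 to 0.014 for Bcl10 and −0.49 to 0.36 for Dgka. Over these fits the log2 ratios differed between genotypes by −0.168 to 0.373 for Dgka/Dgkz, −0.069 to 0.136 for Cd28/Icos, −0.106 to 0.188 for Cd3g/Cd3e, −0.0647 to 0.0995 for Cd3d/Cd3e, −0.0387 to 0.081 for Cd247/Cd3e and −0.0926 to 0.0205 for Zap70/Lck. Without a change of sign, leaving out 1 library gave 0.08 to 0.65 for Ptprc, −0.47 to −0.03 for Ubash3a, −0.50 to −0.19 for Cd8b1, −0.71 to −0.32 for Cd6, 0.29 to 0.66 for Ptpn22, −0.38 to −0.19 for Csk, 0.10 to 0.35 for Lcp2, −0.30 to −0.05 for Sos1, 0.03 to 0.20 for Cd28, 0.01 to 0.18 for Icos, −0.19 to −0.05 for Fyn, −0.10 to −0.01 for Vav1, 0.04 to 0.20 for Rasgrp1, −0.26 to −0.10 for Dgkz, −0.29 to −0.12 for Cbl, −0.88 to −0.34 for Prkd2 and 0.24 to 1.77 for Themis2. The log2 ratios gave 0.0723 to 0.435 for Grap/Grap2, 0.0706 to 0.277 for Cd8b1/Cd8a and 0.0347 to 0.160 for Lck/Fyn. The median of the 40 genes ran from −0.14 to 0.02. With 3 libraries a group, a ratio cannot give an exact p under 0.1, and these p-values say nothing about stability.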
